A study of Sus scrofa with 6 samples.

Results

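The proteasome is the protease that breaks down proteins carrying a ubiquitin tag, and the RNA of its constitutive subunits is described here in skeletal muscle of pigs with an adipocyte-specific knock-in of UCP1 (UCP1 KI) and of wild-type (WT) pigs. The genes were chosen by symbol, with the subunits of this complex already known to be among the genes that the study names from these pigs, as 31 subunits: 14 of the 20S core (*PSMA* and *PSMB* genes), 6 of the ATPase ring (*PSMC* genes) and 11 of the lid and base (*PSMD* genes). Of these 31, 28 had an identifier in the count table of 30476 genes, and all 28 passed the filter on low counts. The core gene *PSMA6* and the catalytic core genes *PSMB5* and *PSMB6* were found under no identifier in the table and were not analysed here.

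The back muscle longissimus dorsi was sampled in 3 UCP1 KI and 3 WT pigs, all 6 months old. The KI pigs were made with CRISPR/Cas9 to express UCP1, the heat-producing uncoupling protein of brown fat, in adipocytes, so that the muscle fibres themselves were not the targeted cells. The labels name no treatment in either group, and the sources used here give neither the sex of the pigs nor whether they were littermates, nor the promoter that drives the knock-in. The labels number the samples as replicates 1 to 3 of each genotype without saying that each is a separate animal, so p values measure the spread between these samples, taken here as 1 pig each.

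The proteasome has a barrel-shaped 20S core with the proteolytic sites on its inside, built of outer alpha rings, which gate the entrance, and inner beta rings, which cut the substrate. A regulatory particle caps the core. Its ATPase ring unfolds the substrate and opens the gate, and its non-ATPase subunits bind ubiquitin chains, remove them and hold the particle together. In muscle the ubiquitin-proteasome route degrades contractile proteins and is best known for its activity during atrophy.

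Counts on genes summed to between 30220951 and 35066624 per pig, and the member with the fewest counts in any pig, *PSMA4*, still had 403 there. The narrowest differences between single pigs, such as those of a few percent that decide an overlap, were of the size of counting error. The 20 most abundant genes held between 39.0% and 44.0% of the counts of the UCP1 KI pigs and between 44.5% and 56.5% in WT pigs, the last in WT replicate 2. Normalization factors were between 0.947 and 1.18 in UCP1 KI and between 0.781 and 1.07 in WT pigs. The table holds no identifier named *UCP1*, so the genotype was not checked against its counts. The study reports no *UCP1* mRNA in muscle of either genotype, so such counts would not have told the groups apart. Of 12 muscle fibre markers, 6 were measured (among them *ACTA1*, *CKM*, *NEB* and *DES*), and their sum of 60563 to 95158 CPM (read counts scaled to library size and by the TMM method) in UCP1 KI and 77418 to 103399 CPM in WT pigs marks the samples as muscle.

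All 28 measured subunits had a higher fitted level in UCP1 KI than in WT pigs, with a median log2 fold change of 0.69, a fold of 1.61. A positive log2 fold change was found for 48.7% of all 13402 genes tested, whose median was -0.02. A gene is termed called where its unadjusted p from edgeR's quasi-likelihood test was under 0.05 and its absolute log2 fold change above 0.5, the limits used in the study. By this rule 12 subunits were called higher (42.9%), against 3.84% of all genes, and 0 were called lower, against 4.34% of all genes. After Benjamini-Hochberg adjustment over all genes, 0 subunits passed in edgeR, as did 0% of all genes, although 12 subunits and 1100 genes had an unadjusted p under the same limit. The smallest adjusted p of a subunit from edgeR was 0.583. DESeq2 called 14 subunits higher at the unadjusted limits, against 4.4% of all genes, and 0 after adjustment, where *PSMD11* had the smallest adjusted p, 0.0633. Of the 12 calls, 5 fell on the 6 subunits that the study names from these pigs, which are not independent evidence, and 7 on the other 22. Each UCP1 KI pig was above each WT pig for 7 subunits (25%), as for 7.59% of all genes.

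**Figure D1:**
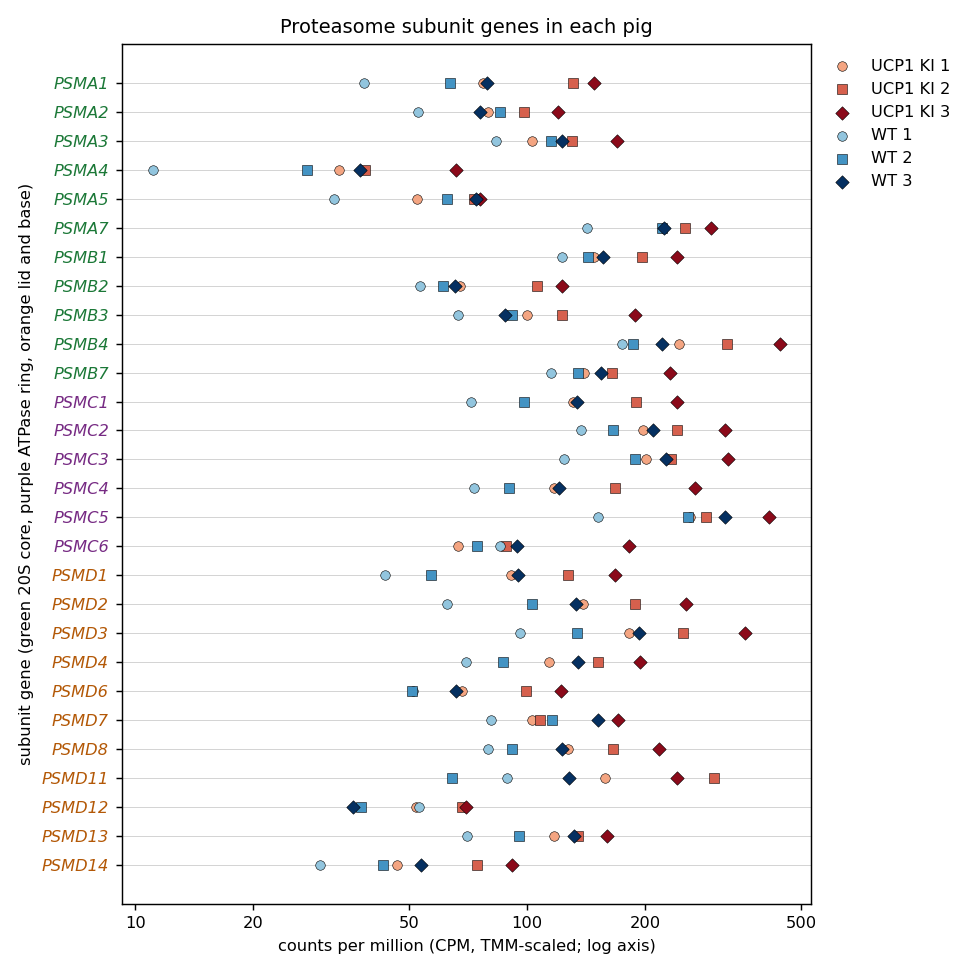
Each row is a subunit gene and each point a pig, with the level in CPM scaled by TMM on a log axis. UCP1 KI replicate 3 is the highest pig for 27 of the 28 subunits, and UCP1 KI replicate 1 lies among the WT pigs for most of them.

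The subunits moved together from pig to pig. In 27 of the 28, UCP1 KI replicate 3 was the highest of all 6 pigs, and in 23 of these UCP1 KI replicate 2 came second. The exception was *PSMD11*, highest in UCP1 KI replicate 2. UCP1 KI replicate 1 had the lowest level of its group for all 28 subunits and lay below at least 1 WT pig for 21 of them. Relative to the mean of the WT pigs, the median subunit stood at 1.17-fold in UCP1 KI replicate 1, 1.54-fold in UCP1 KI replicate 2 and 2.10-fold in UCP1 KI replicate 3. Within WT the same medians were 0.733, 1 and 1.27 for replicates 1, 2 and 3, and WT replicate 3 was the highest WT pig for 25 subunits. UCP1 KI replicate 3 thus exceeded UCP1 KI replicate 1 by between 1.32-fold (*PSMA7*) and 2.73-fold (*PSMC6*), and within the UCP1 KI group the subunits differed between pigs about as much as between the genotypes.

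This order of pigs kept its upper end with scaling by library size only, where UCP1 KI replicate 3 was again the highest of its group for 27 subunits and UCP1 KI replicate 1 the lowest for 28. Among WT pigs the lowest place changed with the scaling. WT replicate 1 held it for 24 subunits with TMM, whereas library size only gave it to WT replicate 1 for 13 and to WT replicate 2 for 15. That scaling raised the median of all genes by 0.25 on the log2 scale and the median of the subunits to 0.98. With it 20 subunits were called higher, against 6.93% of all genes, and 12 did not overlap between the groups, against 11.9% of all genes. Relative to all genes the subunit median was 0.70 with TMM and 0.74 with library size only. The sum of the muscle fibre markers was 95158 CPM in UCP1 KI replicate 1 and 60563 and 66557 CPM in replicates 2 and 3, the pigs of that group with more subunit RNA. In WT replicates 1 to 3 it was 77418, 91304 and 103399 CPM, rising with subunit RNA, so that the direction differed between the groups. The part of this sum in the result was not tested.

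Other cell types were followed by fixed marker lists. Over all genes tested, 3.84% were called higher and 4.34% lower, and a single call in a list this short is not read as a result. Of 6 fibroblast markers, 4 were called lower in UCP1 KI pigs, and the sum of the 6 was 235 to 435 CPM there against 742 to 1187 CPM in WT pigs. In bulk tissue, fewer cells of a type and less RNA per cell cannot be told apart. The sum of 5 red blood cell markers was 11.6 to 76.5 CPM in UCP1 KI against 106 to 181 CPM in WT, with 1 of 4 tested called lower, and that of 8 leukocyte markers was 22.9 to 74.0 against 20.9 to 37.6 CPM, with 2 of 7 called higher. For adipocyte markers, 1 of 5 tested was called higher, with sums of 66.2 to 132 CPM in UCP1 KI and 69.0 to 297 CPM in WT. For endothelium 1 of 4 was called higher (273 to 508 against 251 to 457 CPM) and for Schwann cells 0 of 4 (52.3 to 61.7 against 51.6 to 66.1 CPM). The red blood cell marker *SLC4A1* had at most 3 counts in any pig. No list had all its defining markers at 0, and the part of these cells in the subunit result was not tested.

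The 11 measured core subunits had a median log2 fold change of 0.48, or 0.32 without UCP1 KI replicate 3. With that pig, WT replicate 1 or WT replicate 2 left out 0 of them were called. With all pigs 4 of them were called higher, against 3.84% of all genes. These were *PSMA1* of the alpha rings and *PSMB2*, *PSMB3* and *PSMB4* of the beta rings. *PSMA1* (ENSSSCG00000013391, chr2:44740102-44755296 in the RefSeq annotation of Sscrofa11.1), a subunit of the gated outer ring, was at 77.2, 131 and 148 CPM in UCP1 KI replicates 1 to 3 and at 38.4, 63.4 and 79.2 CPM in WT replicates 1 to 3. UCP1 KI replicate 1 was thus just under the highest WT pig. The log2 fold change of *PSMA1* was 0.98 (standard error, SE, 0.36, edgeR adjusted p = 0.583).

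The beta ring subunits called were structural ones, which carry no catalytic threonine in the mature core. *PSMB4* (ENSSSCG00000034984, chr4:97835544-97837909) stood at 244, 324 and 442 CPM in UCP1 KI and 175, 186 and 221 CPM in WT pigs, without overlap of the groups. Its log2 fold change was 0.80 (SE 0.29, edgeR adjusted p = 0.583). *PSMB2* (ENSSSCG00000035914, chr6:91792055-91829942) was measured at 67.4, 106 and 123 CPM against 53.3, 61.1 and 65.4 CPM. Here too every UCP1 KI pig was the higher one, though UCP1 KI replicate 1 by a small margin, and the log2 fold change was 0.72 (SE 0.28, edgeR adjusted p = 0.592). *PSMB3* (ENSSSCG00000037606, chr12:23347060-23357616) gave 99.9, 123 and 189 CPM against 66.6, 91.4 and 87.8 CPM, again without overlap. The log2 fold change of *PSMB3* was 0.74 (SE 0.30, edgeR adjusted p = 0.603).

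*PSMB7* (ENSSSCG00000005590, chr1:265172257-265235389), which carries the trypsin-like activity and was the only catalytic subunit of the constitutive core that was measured, was at 139.9, 165 and 232 CPM in UCP1 KI pigs. In WT pigs it was at 115, 135 and 154 CPM, so that the groups overlapped by UCP1 KI replicate 1. Its log2 fold change was 0.41, with a 95% interval from -0.23 to 1.05 (adjusted p = 0.702 from edgeR). The smallest change in the core was that of *PSMA5* (ENSSSCG00000006830, chr4:110695429-110717308), another alpha ring subunit, at 52.5, 73.3 and 75.7 CPM against 32.1, 62.3 and 74.0 CPM. Its log2 fold change of 0.26 (95% interval from -0.54 to 1.05, adjusted p = 0.855 from edgeR) turned to -0.03 without WT replicate 1, the lowest pig. The other core subunits *PSMA2*, *PSMA3*, *PSMA4*, *PSMA7* and *PSMB1* had log2 fold changes of 0.48, 0.33, 0.86, 0.39 and 0.47, and their groups overlapped. Of these, *PSMA4* varied most between pigs, by 5.93-fold between WT replicate 1, the lowest pig, and UCP1 KI replicate 3, the highest at 65.9 CPM.

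**Figure D2:**
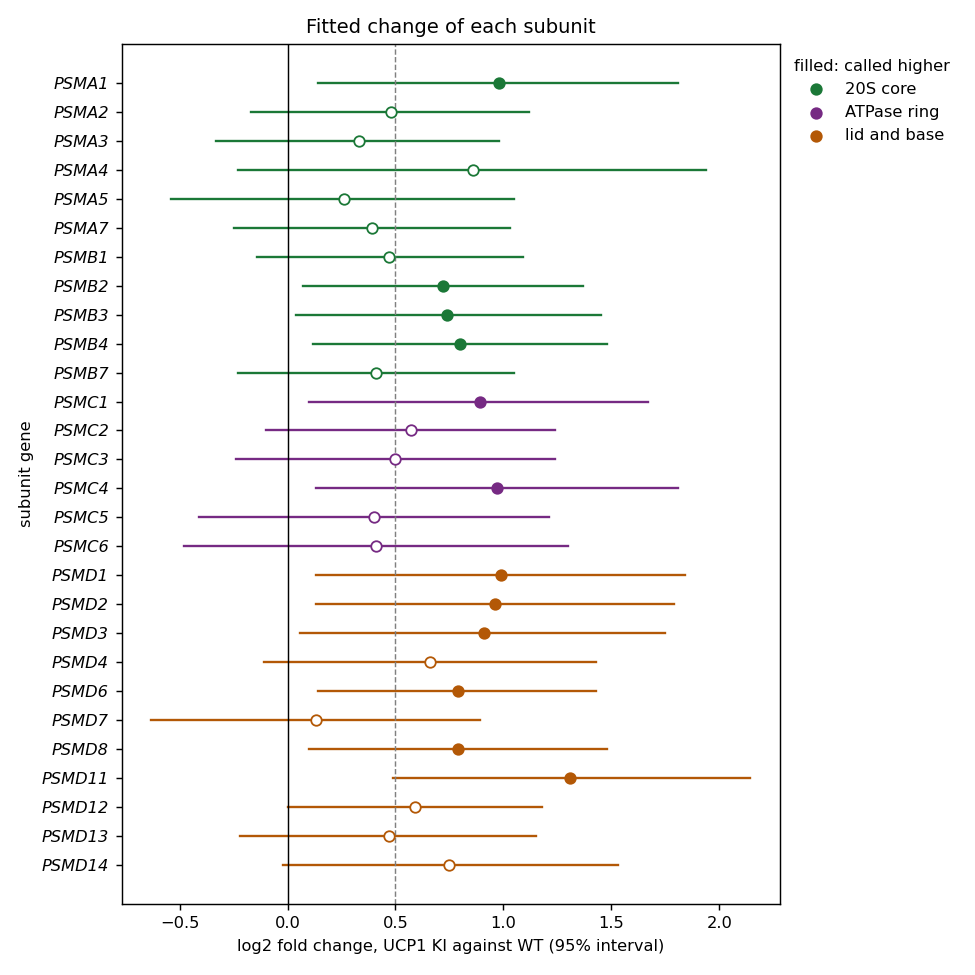
Points are log2 fold changes of UCP1 KI against WT from edgeR with 95% intervals, filled where the subunit was called higher, and the dashed line marks a log2 fold change of 0.5. All 28 points lie right of 0, from 0.13 for PSMD7 to 1.31 for PSMD11, and 16 of the intervals include 0.

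In the ATPase ring, 2 of 6 subunits were called higher, against 3.84% of all genes, and the median log2 fold change was 0.53. The median was 0.32 without UCP1 KI replicate 3, and 0 ATPase genes were called without that pig, WT replicate 1 or WT replicate 2. *PSMC4* (ENSSSCG00000039235, chr6:48406237-48414470) was at 117, 168 and 268 CPM in UCP1 KI pigs and at 73.2, 89.7 and 120.3 CPM in the WT group. The log2 fold change of *PSMC4* was 0.97 (SE 0.36, edgeR adjusted p = 0.583). *PSMC1* (ENSSSCG00000002433, chr7:112027904-112041360) had 131, 189.5 and 242 CPM against 71.9, 98.1 and 134 CPM, a log2 fold change of 0.89 (SE 0.34, edgeR adjusted p = 0.583). In both genes UCP1 KI replicates 2 and 3 were above all WT pigs, and UCP1 KI replicate 1 was slightly under WT replicate 3. The smallest change of the ring was that of *PSMC5* (ENSSSCG00000017287, chr12:15101946-15106326), with 260.2, 286 and 415 CPM against 152, 258 and 319 CPM. For this gene the log2 fold change of 0.40 had a 95% interval from -0.41 to 1.21 (adjusted p = 0.771 from edgeR).

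*PSMC2* and *PSMC3* had log2 fold changes of 0.57 and 0.50, with 95% intervals from -0.10 to 1.24 and from -0.24 to 1.24. *PSMC6* depended on a single pig. This ATPase was at 66.7, 88.2 and 182 CPM in UCP1 KI pigs and at 85.4, 74.3 and 94.1 CPM in the WT group. Its log2 fold change of 0.41 became -0.13 without UCP1 KI replicate 3. None of the 6 ATPase genes had every UCP1 KI pig above every WT pig. Over all genes this share was 7.59%, so that 0 of 6 does not set the ring apart.

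In the lid and base, 6 of 11 subunits were called higher, and the median log2 fold change was 0.79. In the base, *PSMD1* and *PSMD2* are the large scaffold proteins, and *PSMD4* is a ubiquitin receptor. *PSMD2* (ENSSSCG00000046387, chr13:122187500-122199397) was at 139, 188 and 254 CPM in UCP1 KI pigs and 62.5, 103 and 133 CPM in WT pigs, without overlap. Its log2 fold change was 0.96 (SE 0.36, edgeR adjusted p = 0.583). *PSMD1* (ENSSSCG00000016272, chr15:131807594-131912194) had 91.1, 127 and 168 CPM against 43.4, 56.8 and 94.8 CPM. Its groups overlapped by UCP1 KI replicate 1 alone, and its log2 fold change was 0.99 (SE 0.37, edgeR adjusted p = 0.583). *PSMD4* was not called, with a log2 fold change of 0.66 (95% interval from -0.11 to 1.43).

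*PSMD11* (ENSSSCG00000017731, chr12:42498711-42529853), a lid subunit that clamps the regulatory particle to the core, had the largest change of all subunits. It was at 158, 300.4 and 242 CPM in UCP1 KI pigs and at 89.1, 64.2 and 128 CPM in the WT group, and every UCP1 KI pig was above every WT pig. The log2 fold change was 1.31 (SE 0.36, 95% interval from 0.49 to 2.14), a fold of 2.49, with adjusted p = 0.583 from edgeR. It was the only subunit called in each of the 6 fits that left out 1 pig, between 1.08 and 1.61.

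*PSMD3* (ENSSSCG00000017489, chr12:22344751-22360550) was measured at 182, 250.4 and 359.8 CPM against 96.2, 134 and 193 CPM, with a log2 fold change of 0.91 (SE 0.36, edgeR adjusted p = 0.603). UCP1 KI replicate 1 was under WT replicate 3 for this lid subunit, and the other UCP1 KI pigs were above all WT pigs. *PSMD6* (ENSSSCG00000011494, chr13:45506334-45529481) was at 68.4, 99.6 and 122 CPM against 51.2, 50.8 and 65.9 CPM. *PSMD8* (ENSSSCG00000036658, chr6:47289891-47297059), also of the lid, was at 127, 166 and 217 CPM against 79.5, 91.5 and 123 CPM. Neither gene overlapped between the groups, by a margin of a few CPM at UCP1 KI replicate 1, which is of the size of counting error. Each had a log2 fold change of 0.79, with a standard error of 0.28 for *PSMD6* and 0.30 for *PSMD8* and an adjusted p = 0.583 from edgeR for both.

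*PSMD14* (ENSSSCG00000015892, chr15:68107379-68208884), the deubiquitinase that takes ubiquitin chains off the substrate at the entrance, was at 46.6, 74.4 and 91.5 CPM in UCP1 KI and 29.6, 42.9 and 53.5 CPM in WT pigs. With a log2 fold change of 0.75 (95% interval from -0.02 to 1.53, adjusted p = 0.61 from edgeR) it lay just outside the call, and by DESeq2 it was called. Its partner in the lid, *PSMD7* (ENSSSCG00000032908, chr6:17047420-17057170), had the smallest change of all subunits. *PSMD7* was at 103, 108 and 171 CPM against 81.0, 116 and 152 CPM, where only UCP1 KI replicate 3 was above all WT pigs. The log2 fold change was 0.13 (95% interval from -0.63 to 0.89, adjusted p = 0.925 from edgeR), and -0.14 without UCP1 KI replicate 3. *PSMD12* and *PSMD13* had log2 fold changes of 0.59 and 0.47 and were not called by edgeR, and *PSMD12* was the other subunit that DESeq2 called beside *PSMD14*.

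**Figure D3:**
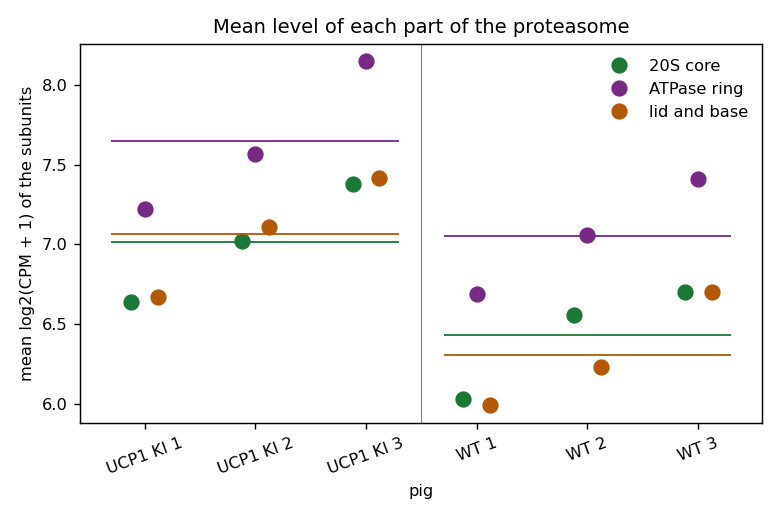
Points give the mean log2(CPM + 1) of the 11 core, 6 ATPase and 11 lid and base subunits in each pig, and horizontal lines the mean of each genotype. All parts are highest in UCP1 KI replicate 3 and lowest in WT replicate 1.

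The parts were then set against each other within each pig, which takes out most of the scaling of the libraries. Mean log2(CPM + 1) was 7.01 ± 0.372 (SD, n = 3) in UCP1 KI and 6.43 ± 0.354 (SD, n = 3) in WT pigs for the core, 7.65 ± 0.468 and 7.05 ± 0.357 for the ATPase ring, and 7.07 ± 0.377 and 6.31 ± 0.357 for the lid and base. These means are not levels per transcript length, and only their differences between pigs are compared. The lid and base minus the core gave 0.03, 0.09 and 0.04 in UCP1 KI replicates 1 to 3 and -0.04, -0.33 and -0.01 in WT replicates 1 to 3. Every UCP1 KI pig was higher than every WT pig in this difference, by 0.18 on average. WT replicate 2 set most of it, since the difference was 0.07 without that pig. The ATPase ring minus the core was 0.59, 0.55 and 0.77 against 0.66, 0.49 and 0.70, which overlapped and differed by 0.01. For the regulatory particle as a whole, the difference from the core was 0.26 ± 0.035 in UCP1 KI and 0.14 ± 0.156 in WT pigs (SD, n = 3), 0.12 apart, and 0.03 apart without WT replicate 2.

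The number of calls depended on which pigs were in the fit. Leaving out UCP1 KI replicate 1, the pig with the least subunit RNA of its group, left 14 subunits called higher, against 3.39% of all genes in that fit. Leaving out WT replicate 3, the pig with the most subunit RNA among WT, left 15, against 5.41% of all genes. The count was 3 without UCP1 KI replicate 2 (2.1% of all genes) and 1 without UCP1 KI replicate 3 (3.9% of all genes). Among WT pigs it was 2 without replicate 1 (4.15% of all genes) and 1 without replicate 2 (2.4% of all genes). The median log2 fold change of the subunits lay between 0.48 (without UCP1 KI replicate 3) and 0.88 (without UCP1 KI replicate 1) in these fits. Without UCP1 KI replicate 1 the groups did not overlap for 24 subunits, against 13.4% of all genes, and without WT replicate 3 for 22, against 16.7% of all genes, in place of 7.

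**Figure D4:**
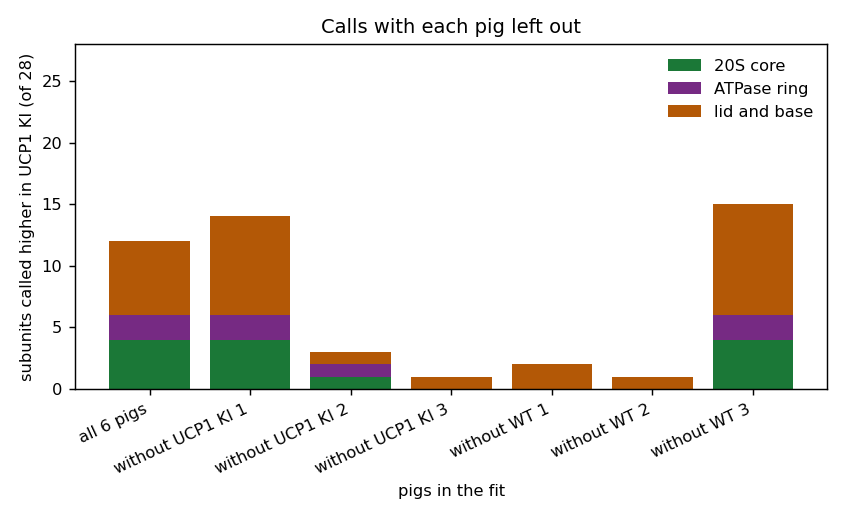
Bars count the subunits called higher in UCP1 KI pigs among 28, by part of the proteasome, with all 6 pigs and with each pig left out. The count is 12 with all pigs and falls to between 1 and 3 without either of UCP1 KI replicates 2 and 3 or either of WT replicates 1 and 2.

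The 31 genes are on 11 chromosomes in the RefSeq annotation, the 12 called ones on 7 of these. *PSMA3*, *PSMA7*, *PSMC1*, *PSMC5*, *PSMD1*, *PSMD6* and *PSMD14* overlap another annotated gene, and as the sources used here do not say that reads were counted by strand, reads of such neighbours cannot be told apart with certainty. No tested neighbour was called, and some neighbours had few counts beside the subunit. *HTR2B* and *TBR1*, which overlap *PSMD1* and *PSMD14*, were below the filter on low counts and were not tested. A noncoding RNA gene overlapping *PSMA3* and a pseudogene overlapping *PSMD14* had no identifier in the table, so their reads are unknown. *NRDE2* next to *PSMC1* was at 2.92 to 6.07 CPM, *HTR2B* inside *PSMD1* at 0 to 1.17 CPM, and *ATXN7* next to *PSMD6* had a log2 fold change of -0.40 and was not called. Of the 21 subunits without such a neighbour, 9 were called higher, against 3.84% of all genes, with a median log2 fold change of 0.66.

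Genes that work with the constitutive proteasome were taken from fixed lists. The immunoproteasome subunits replace the catalytic core subunits in immune cells and after interferon. They did not share the order of pigs of the constitutive subunits, and 0 of 3 were called. *PSMB8* was at 45.3, 76.7 and 12.9 CPM in UCP1 KI pigs and at 25.6, 65.4 and 17.3 CPM in WT pigs. *PSMB9* was at 13.7, 24.3 and 4.58 CPM against 7.94, 33.2 and 5.51 CPM, and *PSMB10* at 17.4, 29.5 and 8.85 CPM against 14.2, 31.6 and 10.3 CPM. All were lowest in UCP1 KI replicate 3, the pig with the most constitutive subunit RNA, and highest in UCP1 KI replicate 2 or WT replicate 2. The summed leukocyte markers had the same order of pigs within each group, at 49.0, 74.0 and 22.9 CPM in UCP1 KI and 28.6, 37.6 and 20.9 CPM in WT pigs, and their part in these levels was not tested. The log2 fold changes of *PSMB8*, *PSMB9* and *PSMB10* were 0.32, -0.13 and -0.01. Those of *PSMB9* and *PSMB10* turned positive with library size only, at 0.25 and 0.32. The tissue-specific subunits *PSMA8* of the testis and *PSMB11* of the thymus were counted 0 times in every pig, which allows up to 3 counts per pig by counting error alone.

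Among the assembly chaperones, which build the core and the base and leave the finished particle, 0 of 6 tested genes were called. With library size only 1 was called, *POMP* (0.81), against 6.93% of all genes. *POMP*, the maturation factor of the beta rings, had the largest log2 fold change, 0.51 (95% interval from -0.12 to 1.13, adjusted p = 0.652 from edgeR), and *PSMG3* the smallest, -0.29 (95% interval from -0.81 to 0.22). Of the alternative caps and the inhibitor of the core, 0 of 5 were called. With library size only 2 were called, *PSME3* and the inhibitor *PSMF1*, against 6.93% of all genes. Without UCP1 KI replicate 1 they were *PSME3* and *PSME4*, against 3.39% of all genes. *PSME3*, the subunit of the nuclear cap, had the largest log2 fold change, 0.69 (adjusted p = 0.656 from edgeR), and *PSME1*, of the interferon-induced cap, the smallest, -0.12, which was 0.18 with library size only.

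With all pigs, all 12 measured genes of ubiquitin receptors, deubiquitinases and shuttle factors had a positive log2 fold change, with a median of 0.62. Of them 3 were called higher, against 3.84% of all genes, or 6 with library size only, against 6.93%. *ADRM1*, the ubiquitin receptor of the base that binds *PSMD1*, was at 135, 183 and 214 CPM in UCP1 KI and at 85.1, 107 and 123 CPM in WT pigs. It shared the order of the pigs within each group and the size of the change of the subunits, with a log2 fold change of 0.76 (SE 0.27, edgeR adjusted p = 0.583). Unlike those of most subunits, its groups did not overlap. *UBQLN2*, which carries ubiquitinated proteins to the proteasome, had a log2 fold change of 0.88 (adjusted p = 0.603 from edgeR), with 5.24, 8.53 and 10.2 CPM against 4.22, 3.03 and 5.74 CPM. *ZFAND2A*, a stress-induced protein that associates with the regulatory particle, rose most, from 21.0, 18.3 and 25.8 CPM in WT pigs to 78.0, 117 and 118 CPM in UCP1 KI pigs. The rise of 2.27 on the log2 scale (SE 0.27, edgeR adjusted p = 0.162) ranged from 2.15 to 2.44 when single pigs were left out. By DESeq2 *ZFAND2A* passed after adjustment, with an adjusted p = 1.7e-10. The lowest UCP1 KI pig of *ZFAND2A*, replicate 1, was well above the highest WT pig. With single pigs left out, 1 gene of the list was called without UCP1 KI replicate 2 or 3 or WT replicate 1 or 2. In those fits 2.1% to 4.15% of all genes were called higher. The count was 5 without UCP1 KI replicate 1, against 3.39% of all genes, and 7 without WT replicate 3, against 5.41%. *ADRM1* and *UBQLN2* were each called in 2 of these 6 fits, those without UCP1 KI replicate 1 or WT replicate 3. *ZFAND5*, a related factor, had the smallest log2 fold change of the list, 0.09. It turned to -0.42 without UCP1 KI replicate 3 and to -0.18 without WT replicate 1.

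**Figure D5:**
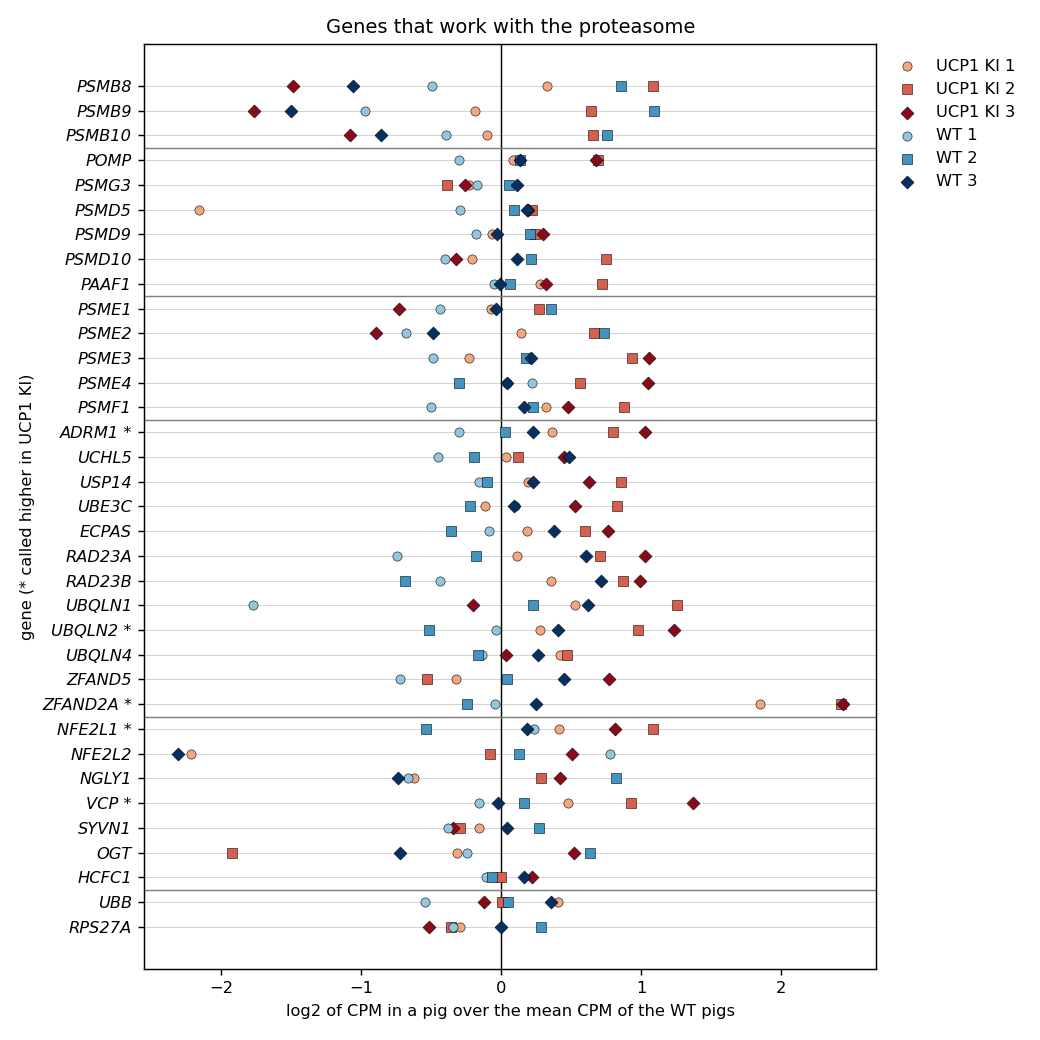
Rows are genes that work with the proteasome, in the order immunoproteasome, assembly chaperones, caps and inhibitor, receptors and shuttle factors, NFE2L1 and its processing, and ubiquitin genes. The horizontal axis is the log2 of the CPM in each pig over the mean CPM of the WT pigs. ZFAND2A is the gene whose 3 UCP1 KI pigs lie farthest right, and the immunoproteasome genes place UCP1 KI replicate 3 at the left end.

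*NFE2L1* encodes the transcription factor that raises proteasome subunit genes when proteasome activity falls short. Of the 7 measured genes of this factor, its processing and its relatives, 2 were called higher, against 3.84% of all genes. *NFE2L1* itself was at 249, 396 and 328 CPM in UCP1 KI pigs and 219.5, 129 and 213 CPM in WT pigs, without overlap, and its fitted difference was 0.79 on the log2 scale (SE 0.31, edgeR adjusted p = 0.602). Its highest pig was UCP1 KI replicate 2, not replicate 3. *NFE2L1* was not called without UCP1 KI replicate 2 (0.61), UCP1 KI replicate 3 (0.78) or WT replicate 2 (0.58). *VCP*, the ATPase that pulls ubiquitinated proteins out of membranes and complexes, including this factor from the endoplasmic reticulum, was at 208, 285 and 387 CPM against 134, 167 and 147 CPM. The log2 fold change of *VCP* was 0.97 (SE 0.29, edgeR adjusted p = 0.583), and it was called in each of the 6 fits without 1 pig. *OGT*, which modifies the factor with a sugar, and *SYVN1*, a ubiquitin ligase of the endoplasmic reticulum, had the smallest log2 fold changes of the list, both -0.26 as rounded, and library size only gave 0.04 for *OGT* and 0.02 for *SYVN1*.

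Of the ubiquitin genes, *UBB* and *RPS27A* are described here, and 0 of these 2 were called. For *UBB*, which encodes a chain of ubiquitin units, the log2 fold change was 0.12 (95% interval from -0.69 to 0.92), and for *RPS27A*, which encodes ubiquitin fused to a ribosomal protein, it was -0.39 (95% interval from -1.02 to 0.25).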

How the data were processed

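The authors isolated RNA with TRIzol, made mRNA libraries, and sequenced paired ends on HiSeq XTen. According to the methods and the submitters' processing notes they used FastQC 0.11.2, Trimmomatic 0.36, HISAT2 2.0 and StringTie 1.3.3b, and the build Sscrofa11.1. The annotation release and the program that made the counts are not given in the sources used here. The authors deposited whole-number read counts per gene without normalization, and 0 columns were left unused.

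Symbols came from a table that paired 14864 of 30476 identifiers. RefSeq positions of Sscrofa11.1 were used for locations. No transcript lengths, promoter or protein sequences were used here, so levels are not compared between genes. In R 4.3.3, edgeR 4.0.16 kept 13402 genes (filterByExpr), scaled by TMM, fitted genotype as the only term and tested two-sided, with Benjamini-Hochberg adjustment over all genes. Standard errors are the log2 fold change divided by the square root of F. DESeq2 1.42.0 was an alternative. All members are named, with values in every pig for those called, the catalytic ones, the extremes of each part and those the study names. Of related lists, called and extreme genes are named, and 1 listed gene is not reported here. Neighbouring genes and markers were added as context. Members, lists and limits were chosen with earlier results of these data known.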

Additional observations from a re-analysis of the deposited data

How the results depend on the processing

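Each measured subunit had 403 or more counts in every pig. Between the 3 pigs of a group, the highest over the lowest level had a median of 1.74-fold in UCP1 KI and 1.73-fold in WT pigs. What limited the precision of the subunits' fold changes was not tested. The direction of all 28 subunits was kept with median-of-ratios factors, library size only, DESeq2, all genes with any count, at least 10 counts in every pig, and the replicate block. With the replicate number as a block 15 subunits were called higher in place of 12 (4.06% of all genes in place of 3.84%). *NFE2L1* (0.80) was not called with it. The labels do not say that shared numbers pair the pigs, so the main fit has no block. Over all genes tested, the correlations of same-numbered pigs' deviations from their group means were 0.00383, 0.0943 and 0.283. Pigs of different numbers were not compared, so these values cannot decide whether the numbers mark pairs. The level of the median subunit rose from replicate 1 to replicate 3 in both groups. Library size only called 20 subunits, 7 of the core and 4 of the ATPase ring, against 6.93% of all genes. It left 12 without overlap, against 11.9% of all genes. Among subunits that the study does not name 7 were called, a set chosen after the values were seen. With each pig left out, 2.1% to 5.41% of all genes were called higher. The calls then ranged from 1 to 15 for all subunits, 0 to 4 for the core, 0 to 2 for the ATPase ring and 1 to 9 for the lid and base. They ranged from 1 to 7 for the receptors and shuttle factors (3 with all pigs, 5 with the block). For the *NFE2L1* list they ranged from 1 to 2, and for the caps and inhibitor from 0 to 2 (2 also with the block). The number of subunits without overlap ranged from 7 to 24. In these fits *PSMA5* reached -0.03 (highest 0.51), *PSMC6* -0.13 (highest 0.68) and *PSMD7* -0.14 (highest 0.37). *PSMD7* was also at -0.08 without WT replicate 1. *PSMB8* lay between -0.31 and 1.06, *PSMB9* between -0.76 and 1.08, *PSMB10* between -0.51 and 0.60, *PSME1* between -0.37 and 0.11, *ZFAND5* between -0.42 and 0.38, *OGT* between -0.90 and 0.20 and *UBB* between -0.09 and 0.34. *PSMB9*, *PSMB10*, *PSME1* and *OGT* were at 0.25, 0.32, 0.18 and 0.04 with library size only, *PSMB9* at 0.02 with the block, and *PSMB10* at 0.02 with all genes with any count. The cause of these changes was not tested.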
